A study of Homo sapiens with 6 samples.

Results

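The 9 genes described here are SAA1, SAA2, PDZK1IP1, C15orf48, LCN2, NEURL3, OLR1, GABRP and STEAP4, taken by symbol from 26195 symbols in 6 single-cell libraries. The cells were PC9, a line grown from a human lung adenocarcinoma. The genes were put together after their levels in these libraries had been seen, so their differences between libraries are descriptions and carry no test. Drop-seq, which captures single cells with barcoded beads in droplets and counts RNA molecules by unique molecular identifiers (UMIs), was run once per condition.

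The untreated library had no virus and no drug. The scrambled library carried a control lentivirus, also with no drug. The other 4 libraries had erlotinib, an inhibitor of the EGFR kinase, at 2 µM for 1 day. One of them also had 6.25 µM CPI-455, which blocks the KDM5 family of histone demethylases, for 4 days. For that library the labels give both the day after seeding and 1 day of treatment, so the start of erlotinib within the 4 days is uncertain. The remaining erlotinib libraries were transduced with lentiviruses for KDM5A shRNA, for KDM5A and KDM5B shRNA together, or for KDM5A cDNA, and erlotinib began 4, 5 and 6 days after transduction in that order. The shRNA vectors carried GFP and the cDNA was driven by a CMV promoter. No library had erlotinib alone, and no KDM5 manipulation came without erlotinib, so the parts of the drug, the virus and the KDM5 manipulation cannot be told apart. Serum differed too: the untreated and CPI-455 libraries had FBS at 5% and the 4 transduced ones at 10%, so virus and serum cannot be told apart between scrambled and untreated cells. The labels name neither separate cultures nor a batch.

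The serum amyloid A proteins encoded by SAA1 and SAA2 are acute phase proteins that are made mainly by the liver and also by epithelia during infection and injury. LCN2, or lipocalin 2, binds bacterial siderophores and so keeps iron from bacteria. Transcription of such mucosal response genes is known to be driven by NF-kB, C/EBP and STAT3 factors, which act downstream of interleukin and Toll-like receptors. PDZK1IP1 encodes MAP17, a small membrane protein that binds PDZ domain proteins. C15orf48 encodes a mitochondrial protein related to the respiratory chain subunit NDUFA4. NEURL3 encodes an E3 ubiquitin ligase of the neuralized family. OLR1 encodes LOX-1, a lectin-like scavenger receptor for oxidised low density lipoprotein. GABRP encodes the pi subunit of the GABA-A receptor, and STEAP4 a metalloreductase of iron and copper.

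Promoter sequences came from RefSeq (GRCh38.p14), whose table matched 6 of the 9 genes: PDZK1IP1, LCN2, NEURL3, GABRP and STEAP4 by symbol, and C15orf48 under its synonym COXFA4L3. SAA1, SAA2 and OLR1 had no entry. The 250 bases before each start were searched on both strands for the NF-kB consensus, for TTNNGNAA (C/EBP), TTCNNNGAA (STAT) and TGANTCA (AP-1). The 4 windows with a match are printed, chosen because they hold one, each 5′ to 3′ on the gene's strand with matches in capitals. They are PDZK1IP1 (chr1:47190037-47190286, minus strand), LCN2 (chr9:128149203-128149452, plus strand), NEURL3 at the downstream of its 2 starts (chr2:96505358-96505607, minus strand) and STEAP4 (chr7:88306895-88307144, minus strand).
PDZK1IP1: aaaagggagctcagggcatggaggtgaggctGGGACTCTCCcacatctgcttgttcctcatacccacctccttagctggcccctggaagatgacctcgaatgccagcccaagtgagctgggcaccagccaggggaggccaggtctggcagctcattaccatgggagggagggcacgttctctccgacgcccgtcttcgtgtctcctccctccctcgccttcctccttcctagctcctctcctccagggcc
LCN2: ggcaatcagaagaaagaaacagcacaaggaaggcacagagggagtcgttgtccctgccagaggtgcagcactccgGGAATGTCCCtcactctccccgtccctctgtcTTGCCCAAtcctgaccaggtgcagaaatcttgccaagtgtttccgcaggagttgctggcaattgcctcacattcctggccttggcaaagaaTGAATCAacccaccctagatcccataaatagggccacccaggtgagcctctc
NEURL3 downstream start: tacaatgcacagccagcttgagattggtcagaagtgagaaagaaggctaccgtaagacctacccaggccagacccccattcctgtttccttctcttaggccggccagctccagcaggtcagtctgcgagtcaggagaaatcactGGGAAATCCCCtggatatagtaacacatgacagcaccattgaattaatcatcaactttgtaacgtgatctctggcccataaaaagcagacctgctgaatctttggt
STEAP4: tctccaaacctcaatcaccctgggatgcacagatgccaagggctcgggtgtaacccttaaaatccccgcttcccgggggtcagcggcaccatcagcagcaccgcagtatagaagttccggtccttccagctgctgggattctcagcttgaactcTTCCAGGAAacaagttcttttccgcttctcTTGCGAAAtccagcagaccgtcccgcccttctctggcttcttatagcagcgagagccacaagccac

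An NF-kB match lay from 219 to 210 bases before the start of PDZK1IP1. LCN2 had an NF-kB match from 175 to 166, a C/EBP match from 143 to 136 and an AP-1 match from 52 to 46 bases before its start. In the NEURL3 window 2 NF-kB matches overlapped, from 106 to 97 and from 105 to 96 bases before the start. The STEAP4 window had a STAT match from 96 to 88 and a C/EBP match from 66 to 59 bases before the start, and no NF-kB match. No searched motif was found in these windows of C15orf48, GABRP or the upstream start of NEURL3. Among all 35116 promoter windows of this length, 5.21% held the NF-kB consensus, 33.2% the C/EBP letters, 6.57% the STAT letters and 6.57% the AP-1 letters. These matches describe letters in the reference and no binding was measured.

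Between 131 and 1166 cells per library passed the limits of at least 500 UMIs and at most 20% mitochondrial UMIs, with 590091 to 3956647 UMIs in all. Median depth was 1493.5 UMIs per cell in the untreated library and 2985.5 to 3762.5 in the other 5. Levels are in CPM, the UMIs of a gene per 1000000 UMIs of its library, with exact 95% Poisson intervals that cover counting error only. Drop-seq counts the 3′ end of each molecule, so CPM was not divided by gene length. For a count of 0 a floor of 3 counts was used, or 0.758 CPM in the untreated library and 5.08 CPM in the smallest library, that of KDM5A cDNA. The exact 95% upper bounds of a 0 in these libraries were 0.932 and 6.25 CPM. One barcode occurred in 2 libraries among the kept cells. KDM5A was at 56.4 CPM with KDM5A shRNA and 81.9 CPM in the scrambled library, and at 164 CPM with KDM5A cDNA. The library labelled KDM5A and KDM5B shRNA had 41.3 CPM of KDM5A, but 138 CPM of KDM5B against 46.4 CPM in the scrambled library. KDM5B stood above the scrambled level in every erlotinib library, at 151 CPM for KDM5A shRNA, 102 CPM for CPI-455 and 94.9 CPM for KDM5A cDNA. The interval of the library labelled KDM5A and KDM5B shRNA, 112 to 168 CPM, overlapped that of KDM5A shRNA, 133 to 171 CPM. Its level of KDM5B thus does not bear out its label. Lacking a library with erlotinib alone, a lowering of KDM5B by the shRNA was not tested. This library is called below the library labelled double shRNA. No UMI was counted for markers of hepatocytes or of T and B cells in any of the 6 libraries. Epithelial markers were detected for 6 of 7 genes, with none counted for CLDN4, and summed to 7877 to 11787 CPM. A marker whose symbol is absent from the files, such as FGB of the hepatocyte markers, also counts as 0. Which of the other markers at 0, CLDN4 among them, are absent symbols is not separated here. Neutrophil markers summed to at most 8.77 CPM and macrophage markers to at most 44.0 CPM.

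All 9 genes were lowest in the 2 libraries without erlotinib, and 7 of them were highest in the 2 shRNA libraries. Over all 15641 genes, 15.9% had every erlotinib library above both libraries without it and 8.9% had both shRNA libraries above the other 4; no weight is drawn from these counts, since the genes were chosen on them. Summed over the 9 genes, the level was 176 CPM in the scrambled library and 391 CPM in the untreated library. It was 892 CPM with CPI-455 and 1164 CPM with KDM5A cDNA. With KDM5A shRNA it reached 5398 CPM and in the library labelled double shRNA 6010 CPM. LCN2 alone gave 89.9% of the 9 genes' UMIs in the scrambled library, 89.1% in the untreated library, 67.4% with CPI-455, 51.5% with KDM5A cDNA, 45.1% with KDM5A shRNA and 53.7% in the library labelled double shRNA. Its share was thus lower in all 4 erlotinib libraries, but did not follow the order of the sums.

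A ratio between 2 libraries was called higher or lower where its exact 95% interval lay wholly past 2-fold, among genes with at least 10 UMIs over both libraries. Against the scrambled library, all 9 genes were called higher with KDM5A shRNA, where 5.17% of 11973 genes were, and all 9 in the library labelled double shRNA (4.91% of 11277 genes). With KDM5A cDNA all 7 genes that reached 10 UMIs were called higher (4.24% of genes), while NEURL3 and GABRP had too few UMIs. The KDM5A cDNA calls of SAA1, SAA2 and PDZK1IP1 were lost when barcodes ending in N were left out, which left 4 of 9 genes called. Such barcodes were 34 of 131 kept cells with KDM5A cDNA, 60 of 263 in scrambled and 118 of 374 with KDM5A shRNA. They were 43 of 152 in the library labelled double shRNA and 59 of 202 with CPI-455, but only 41 of 1166 in untreated. Leaving them out also removes counts, and the part of this in the lost calls was not tested. With CPI-455 against untreated cells 5 of 7 were called higher (6.42% of genes): PDZK1IP1, C15orf48, OLR1, GABRP and STEAP4. In the scrambled library against the untreated one 0 of 5 were called higher (1.48% of genes) or lower (1.08%). These comparisons share the scrambled or the untreated library. A ratio compares 2 libraries and not 2 conditions, since no condition was repeated.

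**Figure D1:**
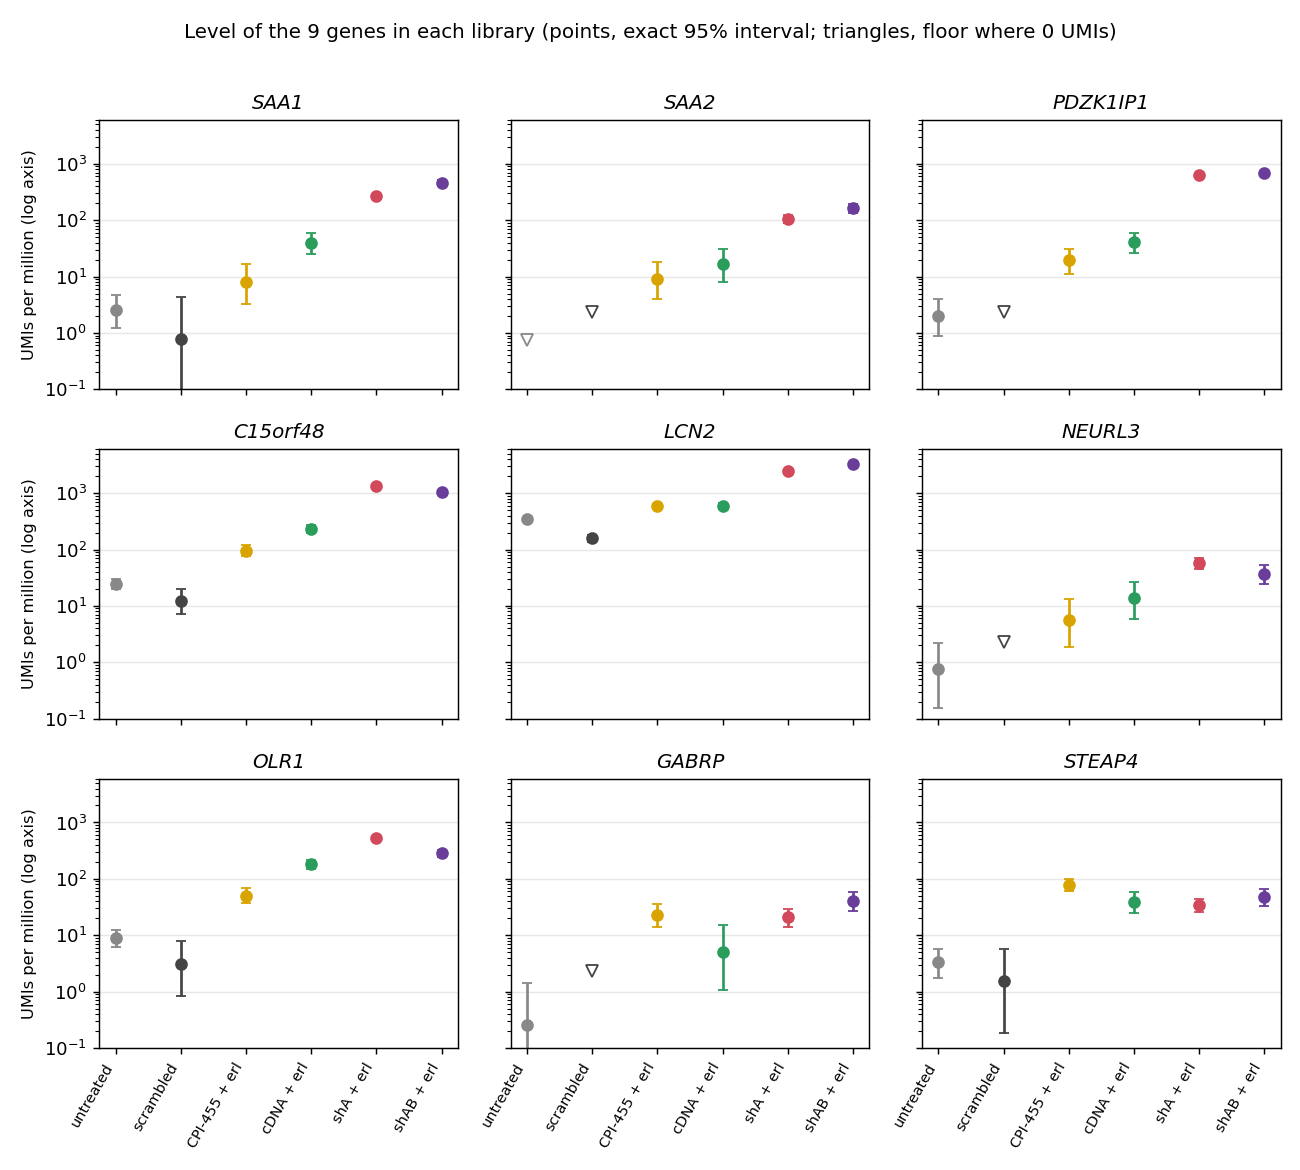
Level of each gene in each library in CPM on a log axis, with exact 95% Poisson intervals; open triangles mark the floor of 3 counts where no UMI was found. In the axis labels erl is erlotinib, shA the KDM5A shRNA library and shAB the library labelled KDM5A and KDM5B shRNA. SAA1, SAA2, PDZK1IP1, C15orf48, LCN2, NEURL3 and OLR1 are highest in the 2 shRNA libraries, and STEAP4 is highest with CPI-455 at 79.0 CPM.

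SAA1 was at 2.53 CPM in untreated cells, 0.773 CPM (1 UMI) in scrambled, 8.01 CPM with CPI-455, 39.0 CPM with KDM5A cDNA, 269 CPM with KDM5A shRNA and 464 CPM in the library labelled double shRNA. The intervals of the 2 shRNA libraries, 244 to 296 and 416 to 517 CPM, did not overlap each other or any other library's, while untreated, scrambled and CPI-455 overlapped. The ratio of KDM5A shRNA to KDM5A cDNA was 6.91 (95% interval 4.54 to 11.02). SAA1 was found in 41.4% of 374 cells with KDM5A shRNA and in 56.6% of 152 cells in the library labelled double shRNA, against 0.772% of 1166 untreated cells.

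SAA2 had no UMI in either library without erlotinib, 9.16 CPM with CPI-455, 16.9 CPM with KDM5A cDNA, 106 CPM with KDM5A shRNA and 164 CPM in the library labelled double shRNA. It was at least 45.7-fold higher with KDM5A shRNA and at least 70.7-fold higher in the library labelled double shRNA than the floor of 3 counts in the scrambled library. The exact 95% lower bounds of these ratios, which take in the counting error of both libraries, were 36.7 and 56.6. The intervals of the 2 shRNA libraries did not overlap, while CPI-455 and KDM5A cDNA did. The UMIs of the pair SAA1 and SAA2 were 71.8% SAA1 (68.0% to 75.4%) with KDM5A shRNA and 73.9% (69.6% to 77.9%) in the library labelled double shRNA. These shares overlapped, and KDM5A cDNA at 69.7% (51.3% to 84.4%, 33 UMIs) overlapped both.

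The division of counts between SAA1 and SAA2 is uncertain because their coding sequences are near copies and the treatment of reads that match both is not given in the sources used here. The coding sequences of the transcripts SAA1-201 and SAA2-201 in GENCODE differ at 11 of 369 bases, an identity of 97.0%. The 3′ UTRs, near which reads of a 3′ method mostly lie, were 119 bases long in SAA1 and 149 in SAA2. Their alignment held 107 identical bases over 149 columns (71.8%). Gaps from the difference in length count as unlike in this share, so the bases that do align are more alike than it shows. The last 120 coding bases, which hold 8 of the 11 coding differences, are printed 5′ to 3′ with the differing bases in capitals.
SAA1: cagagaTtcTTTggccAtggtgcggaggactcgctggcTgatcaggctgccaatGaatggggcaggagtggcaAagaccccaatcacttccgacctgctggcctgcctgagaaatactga
SAA2: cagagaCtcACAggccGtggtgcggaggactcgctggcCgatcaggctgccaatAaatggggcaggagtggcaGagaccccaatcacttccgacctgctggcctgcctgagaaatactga

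PDZK1IP1 was at 2.02 CPM in untreated cells, 0 in scrambled, 19.5 CPM with CPI-455, 40.7 CPM with KDM5A cDNA, 627 CPM with KDM5A shRNA and 679 CPM in the library labelled double shRNA. The 2 shRNA libraries overlapped each other and stood above the rest, and CPI-455 overlapped KDM5A cDNA. The KDM5A shRNA level was 15.4-fold that of KDM5A cDNA (10.3 to 24.2) and 32.2-fold that of CPI-455 (20.03 to 55.5). Its UMIs were found in 67.6% of cells with KDM5A shRNA and 71.1% in the library labelled double shRNA, against 12.2% with KDM5A cDNA, 6.93% with CPI-455 and 0.6003% of untreated cells.

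C15orf48 was at 24.8 CPM in untreated cells, 12.4 CPM in scrambled, 96.1 CPM with CPI-455, 230 CPM with KDM5A cDNA, 1323 CPM with KDM5A shRNA and 1065 CPM in the library labelled double shRNA. No intervals overlapped, though the upper bound of scrambled and the lower bound of untreated nearly met at 20.1 CPM. In both shRNA libraries it was the most abundant of the 9 genes after LCN2. Its respiratory chain relative NDUFA4 was at 596 CPM with KDM5A shRNA and 769 CPM in the scrambled library, a ratio of 0.77 (0.71 to 0.85).

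LCN2 was at 349 CPM in untreated cells, 158 CPM in scrambled, 601 CPM with CPI-455, 600 CPM with KDM5A cDNA, 2435 CPM with KDM5A shRNA and 3227 CPM in the library labelled double shRNA. In the libraries without erlotinib the next of the 9 genes, C15orf48, stood no higher than 24.8 CPM. CPI-455 and KDM5A cDNA could not be told apart (ratio 1.00, 0.87 to 1.14), and no other neighbours in this order overlapped. The CPI-455 level was 1.72-fold that of untreated cells (1.56 to 1.91), short of the 2-fold limit. The scrambled level was 0.45 of the untreated one (0.39 to 0.53), so the fold of a transduced library depends on which library serves as its control. In the ranking of all genes by level, LCN2 stood at place 22 in the library labelled double shRNA and at place 1215 in the scrambled library.

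NEURL3 was at 0.758 CPM (3 UMIs) in untreated cells, 0 in scrambled, 5.72 CPM with CPI-455, 13.6 CPM with KDM5A cDNA, 57.0 CPM with KDM5A shRNA and 37.2 CPM in the library labelled double shRNA. The 2 shRNA libraries overlapped, KDM5A cDNA overlapped CPI-455 and the library labelled double shRNA, and CPI-455 overlapped untreated cells. NEURL3 was at least 24.6-fold higher with KDM5A shRNA than the scrambled floor (exact lower bound of the ratio 19.6), and found in 17.9% of cells there. Against KDM5A cDNA its call rested on few UMIs and was lost without the deepest cell of each library. Its relative NEURL1B reached at most 13.8 CPM in any library.

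OLR1 was at 8.85 CPM in untreated cells, 3.09 CPM (4 UMIs) in scrambled, 50.4 CPM with CPI-455, 180 CPM with KDM5A cDNA, 526 CPM with KDM5A shRNA and 285 CPM in the library labelled double shRNA. Untreated and scrambled cells overlapped, and no other intervals did. OLR1 had the smallest step between KDM5A cDNA and the shRNA libraries among the 7 genes highest with shRNA, 2.93-fold (2.39 to 3.62) for KDM5A shRNA and 1.59-fold (1.25 to 2.03) for the library labelled double shRNA. It was also the member with the lowest ratio between the 2 shRNA libraries, 0.54 (0.46 to 0.63). A single cell held 68 of the 840 OLR1 UMIs of the KDM5A shRNA library, whose level without that cell was 490 CPM. The lectin gene CLEC7A was at 13.8 CPM with KDM5A shRNA and 19.5 CPM with CPI-455, against 3.54 CPM in untreated cells and 0 in scrambled.

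GABRP and STEAP4 followed another order. GABRP was at 0.253 CPM (1 UMI) in untreated cells, 0 in scrambled, 22.9 CPM with CPI-455, 5.08 CPM (3 UMIs) with KDM5A cDNA, 20.7 CPM with KDM5A shRNA and 40.0 CPM in the library labelled double shRNA. The 3 UMIs with KDM5A cDNA came from 1 cell. The other 3 erlotinib libraries overlapped one another, and KDM5A cDNA stood below the library labelled double shRNA. GABRP was at least 8.92-fold higher with KDM5A shRNA than the scrambled floor (exact lower bound of the ratio 6.86).

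STEAP4 was at 3.29 CPM in untreated cells, 1.55 CPM (2 UMIs) in scrambled, 79.0 CPM with CPI-455, 39.0 CPM with KDM5A cDNA, 33.8 CPM with KDM5A shRNA and 48.2 CPM in the library labelled double shRNA. Its highest level was with CPI-455, 24.0-fold that of untreated cells (13.2 to 47.4), the 3 transduced erlotinib libraries overlapped one another, and CPI-455 overlapped only the library labelled double shRNA. With KDM5A shRNA it was 0.43 of the CPI-455 level (0.29 to 0.62), short of the 2-fold limit. The related gene STEAP1 stood at 28.6 CPM in the scrambled library and 4.38 CPM with KDM5A shRNA, where it was called lower.

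Between erlotinib libraries, KDM5A shRNA was called higher than KDM5A cDNA for 7 of 9 genes, where 0.829% of 11214 genes were, and higher than CPI-455 for 7 of 9 (1.17%), in both cases all but GABRP and STEAP4. In the library labelled double shRNA 6 of 9 were called higher than with KDM5A cDNA (0.591% of genes) and 7 of 9 than with CPI-455 (0.599%). The 2 shRNA libraries differed by the rule for 0 of 9 genes (0.644% of genes higher), with ratios from 0.54 for OLR1 to 1.93 for GABRP (1.13 to 3.28). KDM5A cDNA was called higher than CPI-455 for SAA1 (4.87, 2.02 to 13.4) and OLR1 (3.57, 2.49 to 5.19), where 0.264% of genes were. No member was called lower in any of the 11 pairs of libraries with all kept cells, and 1 was when a single cell was left out (GABRP, described with that cell). Of all genes tested, 6.77% were called lower with KDM5A shRNA, 5.71% in the library labelled double shRNA and 4.36% with KDM5A cDNA, each against scrambled, and 4.42% with CPI-455 against untreated. Between erlotinib libraries, 2.93% were called lower with KDM5A shRNA than with KDM5A cDNA and 2.31% than with CPI-455. For the library labelled double shRNA these were 0.335% and 0.304%, and 0.0705% against KDM5A shRNA. With KDM5A cDNA 0.33% were called lower than with CPI-455. Vectors, FBS and the day on which erlotinib began differed among these libraries along with the KDM5 manipulation, and their parts were not tested.

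The share of cells with a UMI depends on depth, so each cell was also thinned to 1000 UMIs, which left out 26 to 344 shallower cells per library. LCN2 was then found in 77.1% of cells with KDM5A shRNA and 83.9% in the library labelled double shRNA, against 27.5% of untreated and 13.5% of scrambled cells. Before thinning these shares were 91.2%, 92.8%, 44.3% and 39.9%. C15orf48 went from 82.1% to 61.7% with KDM5A shRNA and from 5.70% to 0.450% in scrambled cells. PDZK1IP1 was in 42.8% of thinned KDM5A shRNA cells and 0 of 222 scrambled cells. NEURL3, GABRP and STEAP4 were in at most 7.32% of thinned cells of any library, so a typical cell of this depth showed none of them. No cell type in a single line lacks these genes, so free RNA in droplets has no internal reference here. SAA2 was in 0 of 1166 untreated cells, which allows a share of cells with a UMI of up to 0.257% and sets no limit on cells that express the gene.

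**Figure D2:**
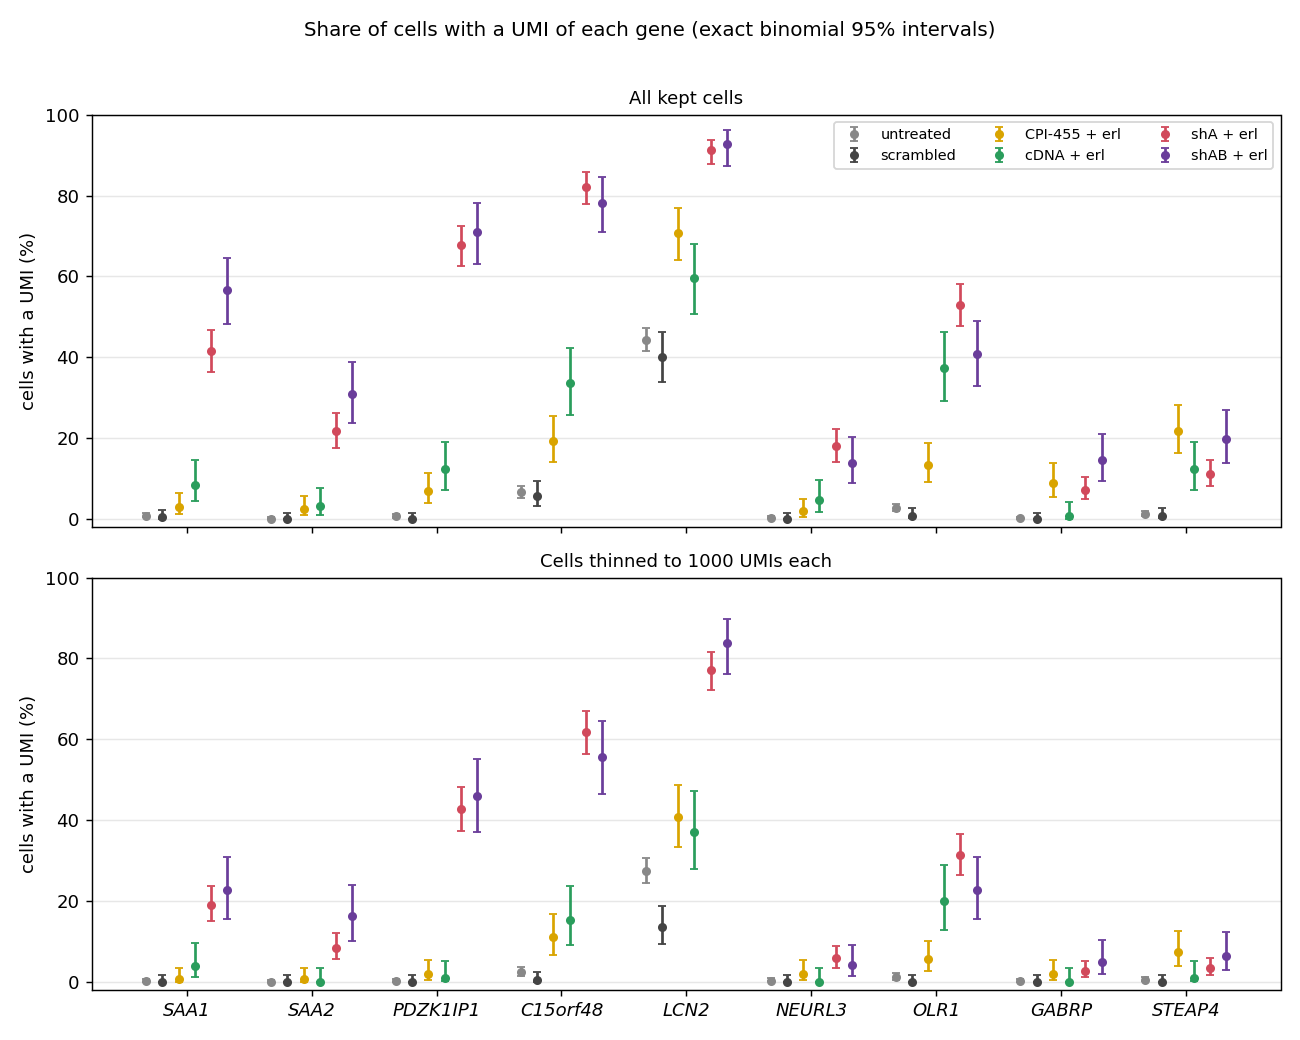
Share of cells with at least 1 UMI of each gene, in percent, with exact binomial 95% intervals, over all kept cells (upper panel) and after thinning each cell to 1000 UMIs (lower panel); erl, shA and shAB mark erlotinib, the KDM5A shRNA library and the library labelled KDM5A and KDM5B shRNA. LCN2 is in 77.1% and 83.9% of thinned cells in the 2 shRNA libraries, and PDZK1IP1 in 42.8% of thinned KDM5A shRNA cells.

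The variance of counts between cells was set against that for equal levels at each cell's depth, without an interval. In the 2 shRNA libraries NEURL3, GABRP and STEAP4 stood at 0.94 to 1.46 times that value, and no excess is read for them. The rest of the 9 genes stood at 2.87 to 11.2 times. With KDM5A shRNA 47.1% of cells had no OLR1 UMI, where equal levels in all cells would leave 25.1%. The variance of OLR1 counts was 10.3 times the value for equal levels, and that of LCN2 10.6 times. Of the 840 OLR1 UMIs, 1 cell held 68 and the deepest cell, with 28586 UMIs, held 55. The OLR1 variance leans on these cells and was not computed without them. Expressed relative to the mean, the variance beyond sampling (squared coefficient of variation) was 2.36 for OLR1, 2.57 for SAA2 and 1.42 for SAA1, but 0.52 for LCN2, 0.45 for PDZK1IP1 and 0.32 for C15orf48. In the library labelled double shRNA the order was similar, with SAA2 at 1.598, OLR1 at 1.498, SAA1 at 0.97, C15orf48 at 0.62, LCN2 at 0.39 and PDZK1IP1 at 0.33. Thus LCN2, C15orf48 and PDZK1IP1 were spread over most shRNA cells and SAA2 and OLR1 were more unevenly held. With KDM5A shRNA the 10% of cells with the most UMIs of a gene held 74.6% of 169 SAA2 UMIs and 43.0% of 3887 LCN2 UMIs. This share also depends on how many UMIs a gene has. It was 68.1% for NEURL3, 94.4% for STEAP4 and 100% for GABRP, so no unevenness is read from it alone.

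Of the 9 genes, a median of 4 were found per cell in each shRNA library, 1 with CPI-455 and with KDM5A cDNA, and 0 in both libraries without erlotinib. At least 5 were found in 148 of 374 cells (39.6%) with KDM5A shRNA and in 66 of 152 (43.4%) in the library labelled double shRNA. If each gene were found independently given the depth of the cell, 143 and 69.2 such cells would be expected. No untreated or scrambled cell had 5. Cells with 5 or more genes had a median of 5275.5 UMIs with KDM5A shRNA and the others 2267, so these cells are the deeper ones. Their median mitochondrial share was 6.74%, against 6.95% in the others.

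**Figure D3:**
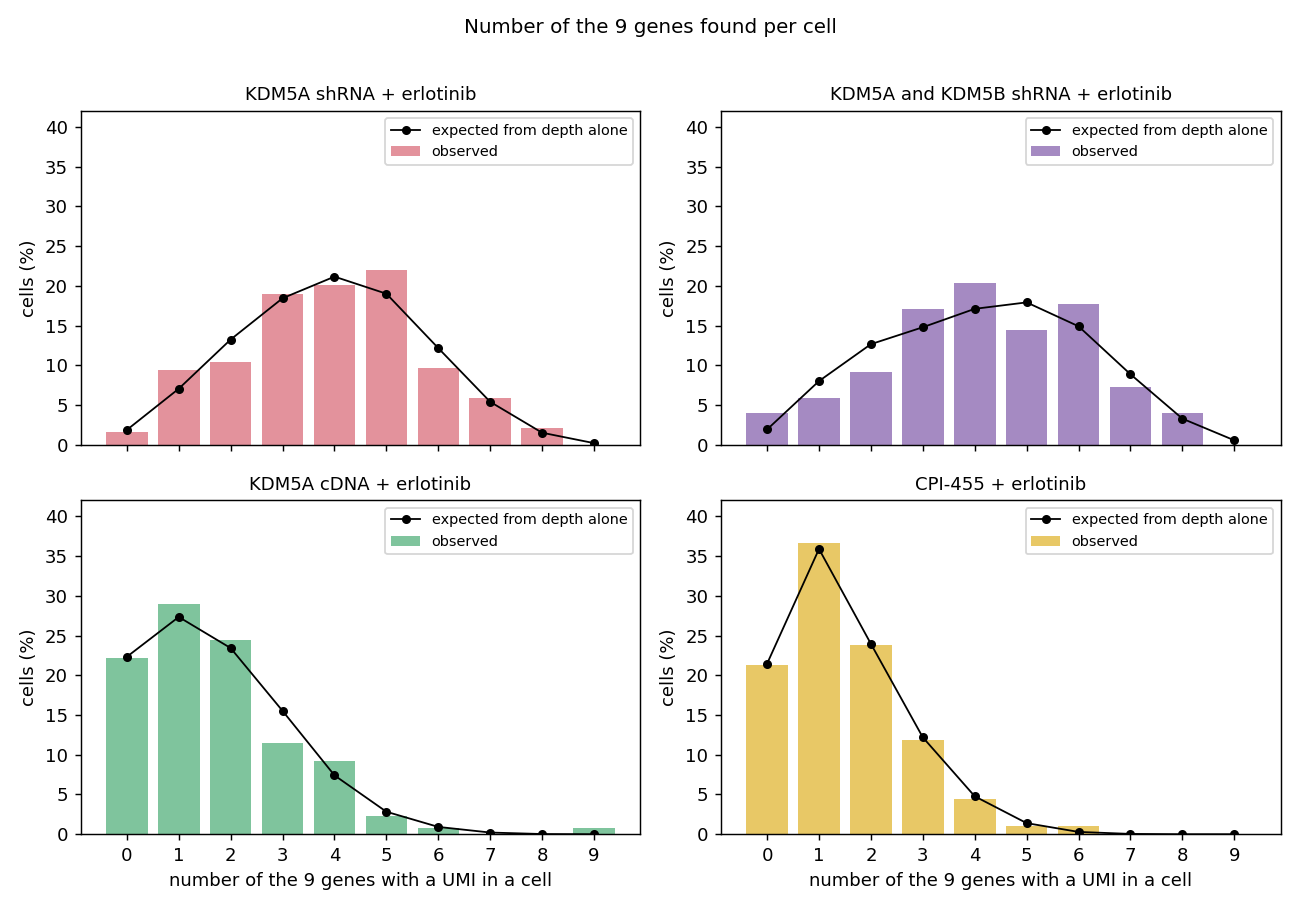
Share of cells, in percent, by the number of the 9 genes with a UMI, in the 4 erlotinib libraries; bars are observed and black points are expected if the genes are found independently given each cell's depth. The bars follow the points closely, with 39.6% of KDM5A shRNA cells holding at least 5 genes, and 1 KDM5A cDNA cell stands alone at 9.

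Pairs of members were mostly found together as often as depth alone would give. Of 36 pairs, 18 were in more cells together than expected with KDM5A shRNA and 20 in the library labelled double shRNA, and the median ratio of observed to expected cells was 1.00 and 1.01. One exception in both libraries was the pair SAA1 and SAA2, found together in 67 cells where 46.0 were expected with KDM5A shRNA (ratio 1.46) and in 45 where 35.0 were expected in the library labelled double shRNA (1.29). After thinning the same pair was in 12 cells against 5.31 and in 9 against 4.52. SAA2 was found in 43.2% of SAA1-positive cells (35.3% to 51.4%) and 6.39% of SAA1-negative cells (3.54% to 10.5%) with KDM5A shRNA, at median depths of 4231 and 2639 UMIs. Reads from the near-identical coding sequences, if divided between the genes, would also appear together, and their part was not tested.

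SAA2 with STEAP4 had the highest ratio with KDM5A shRNA, 21 cells against 13.6 expected (1.54), and 1.16 in the library labelled double shRNA. SAA2 with NEURL3 stood at 1.43 in the library labelled double shRNA but 0.87 with KDM5A shRNA, on opposite sides of 1. OLR1 with STEAP4 was below 1 in both, at 0.83 and 0.68.

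**Figure D4:**
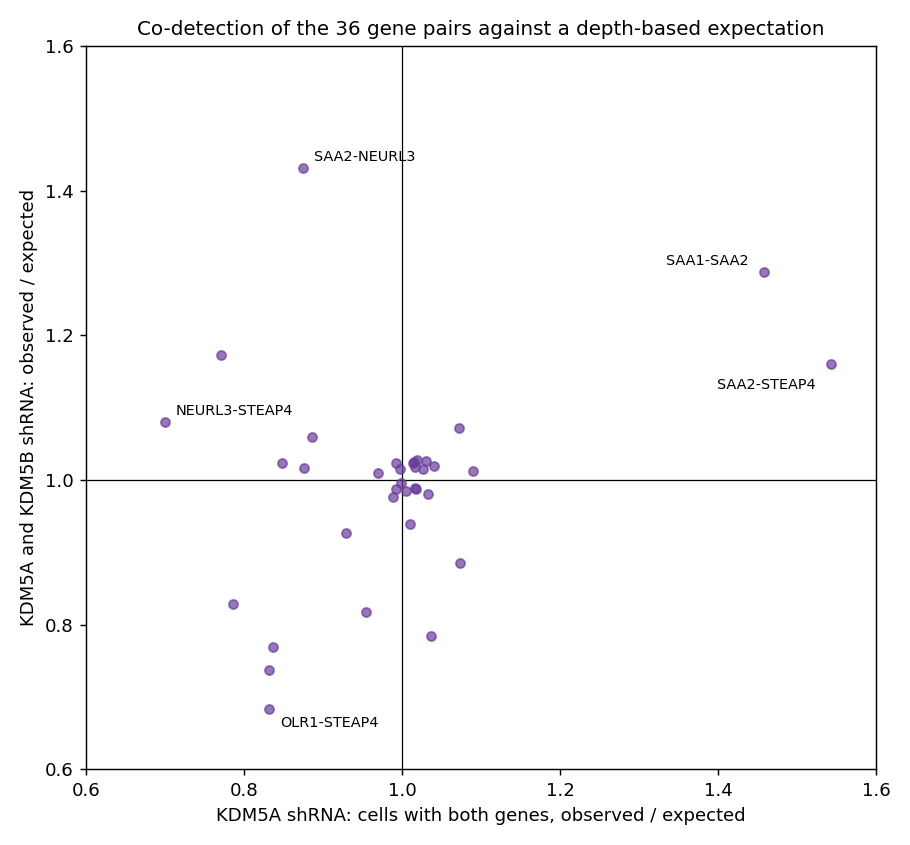
Observed over expected number of cells with both genes for each of the 36 pairs, with the KDM5A shRNA library on the horizontal axis and the library labelled KDM5A and KDM5B shRNA on the vertical axis; the expectation uses each cell's depth. Most pairs lie near 1 and the pair SAA1 and SAA2 lies at 1.46 and 1.29.

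Presence of a UMI cannot show whether abundant genes vary together, so levels per cell were also ranked. SAA1 and SAA2 had a Spearman rho of 0.45 over 374 cells with KDM5A shRNA and 0.60 over 152 cells in the library labelled double shRNA. LCN2 ranked with SAA1 at 0.38 and 0.54, with SAA2 at 0.36 and 0.48, with C15orf48 at 0.40 and 0.38 and with PDZK1IP1 at 0.33 and 0.35. The rho of OLR1 was 0.07 and -0.03 with LCN2 and 0.12 and -0.11 with SAA1, and its highest values were 0.18 with C15orf48 in the KDM5A shRNA library and 0.17 with PDZK1IP1 in the other. Over all 36 pairs the median rho was 0.10 and 0.15. The points share a library and each cell's depth, the genes at few UMIs are mostly ties at 0, and values near 0 carry no reading.

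**Figure D5:**
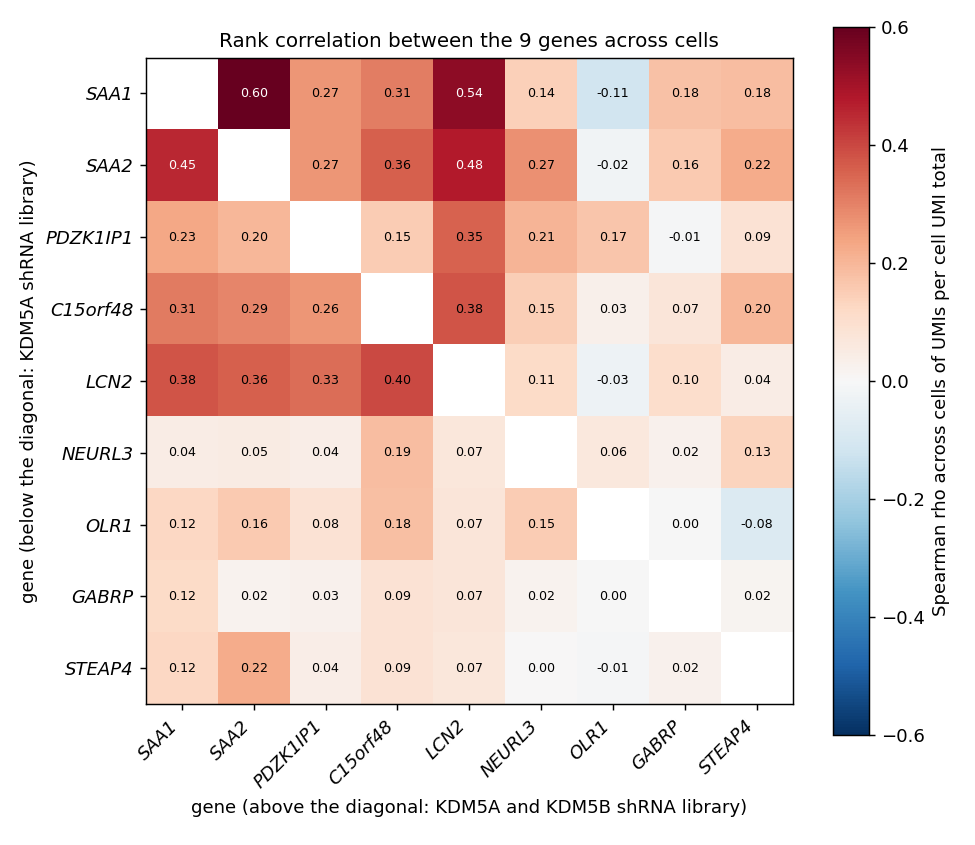
Spearman rho across cells between each pair of the 9 genes, as UMIs divided by the cell's UMI total, with the KDM5A shRNA library below the diagonal and the library labelled KDM5A and KDM5B shRNA above it. The strongest values join SAA1, SAA2, C15orf48, PDZK1IP1 and LCN2, up to 0.60 for SAA1 with SAA2, and OLR1 stays near 0 with LCN2 in both.

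A single cell bore on the KDM5A cDNA values. It was the only cell in any library with all 9 genes and, with 30530 UMIs, the deepest but 1 of its library. It held 143 UMIs of the 9 genes, or 4684 CPM of its own UMIs, against 5398 CPM in the KDM5A shRNA library. It gave 11 of 23 SAA1 UMIs, 7 of 10 SAA2 UMIs, all 3 GABRP UMIs and 79 of 354 LCN2 UMIs in the library. Without it the 9 genes summed to 972 CPM instead of 1164, SAA1 to 21.4 instead of 39.0 and SAA2 to 5.36 instead of 16.9. SAA1 was then no longer called higher than with CPI-455, SAA2 had under 10 UMIs against scrambled, and its level lay under the 9.16 CPM of CPI-455. GABRP, then at 0, was called higher with KDM5A shRNA and with CPI-455 than with KDM5A cDNA. OLR1 at 175 CPM and STEAP4 at 39.3 CPM hardly moved.

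Across the 6 libraries, 8 other genes were most like the mean profile of the members by Pearson's r of log2(CPM + 1), among 8668 genes at 20 CPM or more in some library. SAT1, which encodes the polyamine-acetylating enzyme SSAT, followed at r = 0.997 over 6 libraries, with 73.0 CPM in untreated cells, 31.7 in scrambled, 315 with CPI-455, 330 with KDM5A cDNA, 1094 with KDM5A shRNA and 1321 in the library labelled double shRNA. B2M, the light chain of class I major histocompatibility molecules, had r = 0.992, with 644 CPM in scrambled and 2233 CPM with KDM5A shRNA. C12orf23, whose range was only 54.1 to 114 CPM, had r = 0.998. FSTL3, MYPN, CYR61, PKIG and PDGFB had r of 0.991 to 0.993. With log2(CPM + 5) only 3 of these 8 genes stayed among the first 8. Among the members themselves, r with the mean profile was 0.846 for STEAP4, 0.928 for GABRP and 0.964 to 0.992 for the other 7.

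Across cells, SAT1 also had the highest rank correlation with the members' summed level in both shRNA libraries, with rho of 0.47 over 374 cells and 0.44 over 152 cells. Without LCN2 in the sum these were 0.43, still the highest, and 0.34, where SAT1 stood at place 3 behind C3 at place 2. With KDM5A shRNA the next genes were IGFBP3 (0.35, an insulin-like growth factor binding protein), AKR1B1 (0.32, aldose reductase), PI3 (0.32, the elastase inhibitor elafin), RARRES1 (0.30) and SOD2 (0.30, the mitochondrial superoxide dismutase). In the library labelled double shRNA they were C3 (0.40, the central complement component), CD82, PRSS8, KRT18 and CTSA (0.33 to 0.34). With KDM5A shRNA C3 had a rho of 0.26, KRT18 of 0.22, PRSS8 of 0.09 and CTSA of 0.00. In the library labelled double shRNA RARRES1 had 0.30, IGFBP3 and SOD2 0.29, PI3 0.19 and AKR1B1 0.12. The 99th percentile over all genes with UMIs in at least 10% of cells was 0.18 and 0.23, above PRSS8 and CTSA in the first library and PI3 and AKR1B1 in the second.

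Lists of related genes were set beside the members, against the scrambled library for the transduced ones and the untreated library for CPI-455. The files held from 10 of 23 listed symbols, for acute phase genes, to 22 of 22, for transcription factors. For chemokines and cytokines they held 17 of 26. Symbols absent from the files, CXCL8 among them, are not covered by the counts below. Over all genes tested 5.17% were called higher with KDM5A shRNA, 4.91% in the library labelled double shRNA, 4.24% with KDM5A cDNA and 6.42% with CPI-455. Of mucosal and antimicrobial effectors 9 of 10 tested were called higher with KDM5A shRNA, 11 of 12 in the library labelled double shRNA, 3 of 9 with KDM5A cDNA and 4 of 12 with CPI-455. The list's median log2 ratio was 3.16 with KDM5A shRNA, beside -0.08 over all genes tested. SLPI, a secreted protease inhibitor of mucosa, was at 54.1 CPM in scrambled, 101 in untreated, 212 with CPI-455, 105 with KDM5A cDNA, 340 with KDM5A shRNA and 397 in the library labelled double shRNA. WFDC2 was at 113 CPM in scrambled, 237 in untreated and 103 with KDM5A cDNA, but 444 with KDM5A shRNA. TNFAIP2 was called higher in both shRNA libraries (2.70-fold and 2.85-fold) but stood at 0.58 of the untreated level with CPI-455 and was not called there. MUC4, a membrane mucin, was called higher in all 4 comparisons, from 2.69-fold with CPI-455 to 9.68-fold with KDM5A shRNA.

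Among acute phase and complement genes 3 of 6 were called higher with KDM5A shRNA and in the library labelled double shRNA, 2 of 4 with KDM5A cDNA and 2 of 6 with CPI-455. C3 was at 120 CPM with KDM5A shRNA and 203 CPM in the library labelled double shRNA, against 13.9 CPM in scrambled, but at 33.2 CPM with CPI-455 against 70.5 CPM in untreated cells. It was called lower in the scrambled library than in the untreated one, at a ratio of 0.20 (0.12 to 0.32), so its folds depend on the control. C1R and CEBPD were called higher in all 4 comparisons. TFRC, the transferrin receptor, was called lower in all 4, at ratios of 0.20 to 0.30. FTH1, the ferritin heavy chain, was called higher in all 4, from 2.31-fold to 2.94-fold. SAA4, the constitutive serum amyloid gene, had at most 4 UMIs in a library.

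Of 11 chemokine and cytokine genes tested 6 were called higher in each shRNA library, 2 of 8 with KDM5A cDNA and 0 of 8 with CPI-455. CXCL1, a neutrophil chemokine, had no UMI in scrambled cells and 71.4 CPM with KDM5A shRNA, 26.2 CPM in the library labelled double shRNA and 18.6 CPM with KDM5A cDNA. IL6 had 43.8 CPM with KDM5A shRNA, 26.2 CPM in the library labelled double shRNA, 22.0 CPM with KDM5A cDNA and no UMI in scrambled cells. IL18 and LIF were not called in any of the 4 comparisons.

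Feedback and survival genes of the NF-kB pathway were called higher for 10 of 14 with KDM5A shRNA, 9 of 14 in the library labelled double shRNA, 6 of 14 with KDM5A cDNA and 2 of 14 with CPI-455. NFKBIA, the inhibitor that NF-kB itself induces, was at 29.4 CPM in scrambled, 38.2 in untreated, 96.1 with CPI-455, 188 with KDM5A cDNA, 317 with KDM5A shRNA and 254 in the library labelled double shRNA. SOD2 was at 284 CPM with KDM5A shRNA and 40.1 CPM with CPI-455. CFLAR, an inhibitor of caspase 8, and TNIP1, a partner of the deubiquitinase A20, were called higher in both shRNA libraries (2.59-fold to 5.09-fold) and not in the other 2 comparisons. The transcription factors themselves were called higher for 6 of 20, 6 of 20, 7 of 20 and 3 of 21, in the same order. The epithelial factor ELF3 was highest with CPI-455 at 483 CPM, 5.46-fold that of untreated cells (4.73 to 6.31), and was called higher in all 4 comparisons. HIF1A, the oxygen-regulated factor, was not called, with ratios of 0.46 to 0.66, all below 1. CEBPB was at ratios of 1.67, 1.81, 0.65 and 1.25 and KLF5 at 1.81, 1.99, 0.91 and 2.28, in the same order, and neither was called.

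Receptors and adaptors were called higher for 1 of 17 (MYD88) in each shRNA library, 0 of 15 with KDM5A cDNA and 1 of 18 (LIFR) with CPI-455, shares near those over all genes. IL6ST, the shared receptor chain of the interleukin 6 family, was at 169 CPM with KDM5A shRNA and 78.8 CPM in scrambled, a ratio of 2.14 (1.70 to 2.71), short of the limit. OSMR, the oncostatin M receptor, was not called in any of the 4, with a ratio of 2.56 with KDM5A shRNA. TNFRSF1A and LTBR differed from scrambled by ratios of 1.02 and 0.99 with KDM5A shRNA. Relatives and partners of the members were called higher for 3 of 13 with KDM5A shRNA (CLEC7A, GABRA3 and FTH1) and 1 of 10 in the library labelled double shRNA. SLC9A3R1, which encodes a PDZ domain scaffold, and FTL, the ferritin light chain, were not called in any of the 4, at ratios of 0.60 to 0.67 and 1.26 to 1.498. With KDM5A shRNA the median log2 ratio was 3.58 for chemokines and cytokines, 2.38 for feedback genes, 1.501 for acute phase genes, 0.85 for transcription factors, 0.73 for relatives and 0.68 for receptors, beside -0.08 over all genes tested. The lists were chosen with earlier results known, and nothing particular to them is drawn from these counts.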

How the data were processed

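The authors deposited, for each of the 6 libraries, a table of raw UMI counts with genes in rows and barcodes in columns (all values are whole numbers). STAR, FastQC and the build GRCh37.p13 (hg19) are named in the submitters' processing notes; versions, the counting tool and the choice of barcodes are not given in the sources used here. Barcodes under 500 UMIs or over 20% MT- UMIs were dropped, doublets were not called, and UMIs were summed per library. Intervals are exact Poisson, Clopper-Pearson binomial, and conditional Clopper-Pearson for ratios of 2 libraries. Expected co-detection uses 1 rate per gene, set so that the expected number of positive cells equals the observed number, and each cell's depth. The script was tested on simulated data. The median log2 ratio of all genes lay between -0.11 and 0.04 in the 11 pairs; TMM factors (edgeR 4.0.16, R 4.3.3) served only as an alternative scaling. Analyses ran in Python 3.11.15 with scipy 1.17.1 and numpy 2.4.6.

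The 9 members and the 7 lists were chosen with earlier results of these data known. Genes named beside them are the 8 most like the members across libraries, the 6 most like their sum across cells in each shRNA library, the 4 with the most UMIs in each list, and KDM5A, KDM5B and EGFR; SAA4, CLEC7A, NEURL1B, STEAP1, MYD88, LIFR and GABRA3 were named after their values were seen. EGFR was at 273 to 350.0 CPM. Alternatives were all barcodes, other limits on UMIs and mitochondrial share, thinning, other totals, a 4-fold limit and no depth term; 3 more, leaving out barcodes that end in N, the deepest cell, or 1 KDM5A cDNA cell, were chosen after seeing the data. With 1 library per condition, leaving out replicates does not apply.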

Additional observations from a re-analysis of the deposited data

Results flagged for a closer look

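Barcodes left out by the limits (under 500 UMIs or over 20% mitochondrial UMIs) also held the members' UMIs. The flagged levels given next lay above those of left-out barcodes in the libraries without erlotinib, which did not hold for every member and library. With KDM5A shRNA these barcodes had 303.6 CPM of SAA1, 445.2 CPM of PDZK1IP1, 1234.5 CPM of C15orf48, 2266.6 CPM of LCN2, 121.4 CPM of NEURL3 and 566.6 CPM of OLR1. The NEURL3 value rests on 6 UMIs (44.6 to 264 CPM), that of SAA1 on 15 and that of PDZK1IP1 on 22. In the library labelled KDM5A and KDM5B shRNA the left-out barcodes had 191.8 CPM of SAA1, 138.5 CPM of SAA2, 234.4 CPM of PDZK1IP1, 692.6 CPM of C15orf48, 1683.5 CPM of LCN2 and 181.1 CPM of OLR1. All of these lay below the kept cells of that library, such as LCN2 at 3227 CPM, though for SAA2 and OLR1 the intervals overlapped. With KDM5A cDNA the left-out barcodes had 224.7 CPM of C15orf48 and 192.6 CPM of OLR1. LCN2 in the left-out barcodes of the untreated library was at 339 CPM, above the 289 CPM with KDM5A cDNA and the 276 CPM with CPI-455. GABRP had 1 UMI in the left-out barcodes of the scrambled library and none with KDM5A shRNA or KDM5A cDNA. The part of left-out barcodes in the shares of kept cells was not tested.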

How the results depend on the processing

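No called ratio of a member changed sign under any alternative, and TMM scaling or leaving mitochondrial UMIs out of the totals ended none of the 59 called ratios. Thinning to 1000 UMIs ended 18 of them, leaving out barcodes ending in N 7, a limit of 10% mitochondrial UMIs 5, leaving out the KDM5A cDNA cell with all 9 genes or cells under 1000 UMIs 2 each, and all barcodes or leaving out the deepest cell 1 each. Fewer UMIs remain under thinning and without barcodes ending in N. Members called higher with KDM5A cDNA against scrambled numbered 3 after thinning and 4 without barcodes ending in N, instead of 7. For CPI-455 against untreated they numbered 3 after thinning and 2 at a 4-fold limit, instead of 5. For KDM5A shRNA against KDM5A cDNA they numbered 3 at a 4-fold limit, instead of 7. For KDM5A cDNA against CPI-455, instead of 2, they numbered 1 with all barcodes, 1 at 10% mitochondrial UMIs, 1 without barcodes ending in N, 1 without the cell with all 9 genes, and 0 after thinning or at a 4-fold limit. Without a depth term 35 of 36 pairs of members exceeded expectation in each shRNA library, instead of 18 and 20. Of the 8 genes most like the members 3 were shared with log2(CPM + 5). No paired analysis was possible because each condition has 1 library. NEURL3, GABRP and STEAP4 had at most 91 UMIs in any library, which limits their ratios.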
